A study of Mus musculus with 16 samples.

Results

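The 2 engineered Ba/F3 lines of the series were compared as they stood in medium, without interleukin-6 (IL-6). Of the 16 libraries, the 8 in medium were used, 4 from each line, and all 25650 genes of the deposited count table were considered, of which 9540 had enough counts to be tested. 1 line is labelled gp130:IL-6R wt, after gp130 and the IL-6 receptor, and is called gp130:IL-6R here; the other is labelled ChimP3V3:gp130Box1/2, after a synthetic receptor, and is called ChimP3V3 here. Every difference below is ChimP3V3 relative to gp130:IL-6R, so "higher" means higher in ChimP3V3. Both lines share the Ba/F3 background, neither group received IL-6, and the labels do not give whether interleukin-3 was present, whether a line is a clone or a pool, or whether the 4 libraries of a line came from separate cultures.

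Ba/F3 is a mouse pro-B cell line that grows on interleukin-3. It is used to test cytokine receptors because it lacks many of them, so that a receptor put into the cells can be read through their growth and transcription. gp130, encoded by Il6st, is the chain through which IL-6 and related cytokines switch on JAK kinases, the transcription factor STAT3 and the ERK pathway; Box1 and Box2 are the stretches of its inner part that hold the JAK kinases. A comparison of lines in medium gives the starting state from which each line answers to a cytokine.

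The lines differed in most of their transcriptome. Of the 9540 tested genes, 6209 (65.1%) were called at an adjusted p under 0.05 by edgeR's quasi-likelihood test with Benjamini-Hochberg adjustment, 3021 of them higher (31.7%) and 3188 lower (33.4%). Differences of at least 1.5-fold were called for 1520 higher genes (15.9%) and 1591 lower genes (16.7%), and of at least 2-fold for 775 and 718. The libraries of the lines did not overlap for 5476 genes (57.4%). Counts of called genes by list below are to be read beside the shares of 31.7% higher and 33.4% lower. The first principal component of the 7403 genes with a mean of at least 20 CPM, the count scaled to the size of the library held 90.6% of the variance and set the lines apart, and the second held 2.05%. The median difference over all tested genes was -0.004 on the log2 scale, and the median size of a difference was 0.39.

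Total counts ran from 1413247 to 1650348 per library, and 10968 to 11232 genes had a count in each. A gene with 0 counts in all 4 libraries of a line could have had up to 0.506 CPM in ChimP3V3 or 0.487 CPM in gp130:IL-6R cells (3 counts over the group, counting error only). Mitochondrial transcripts took 1.38% to 1.45% of the counts in ChimP3V3 and 1.14% to 1.19% in gp130:IL-6R cells, and ribosomal protein transcripts 6.91% to 7.15% and 6.11% to 6.53%. The spread between libraries of a line was close to counting error. In a chi-square test of counts over genes, 5 of the 6 pairs of ChimP3V3 libraries and 1 of the 6 pairs of gp130:IL-6R libraries did not differ beyond the sampling noise at p of 0.05, although no pair was identical. With gp130:IL-6R replicates 1 and 4 counted as 1 sample and ChimP3V3 replicates 1, 2 and 3 counted as 1 sample, 5401 genes were called, 2610 higher and 2791 lower. The p-values therefore measure the spread between these libraries, which may be technical, and say nothing of how much 1 line varies from clone to clone.

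The pro-B label was checked first. Of 22 pro-B markers, 13 had a count in medium and 5 were tested. Rag1, Rag2, Dntt, Ighm, Blnk, Blk, Bst1 and Ly6d had 0 counts in all 8 libraries, so these markers of an early B cell were not detected at this depth in either line. The tested markers were Ptprc, which encodes the common leukocyte phosphatase CD45 (higher, 414 against 303 CPM), Spn, which encodes the sialoglycoprotein CD43 (lower, 262 against 505 CPM), the signalling chains of the B cell receptor Cd79a (lower, 0.160 against 4.91 CPM) and Cd79b (lower, 8.76 against 14.9 CPM, a call lost with replicates merged, edgeR adjusted p = 0.0848), and the transcription factor gene Tcf3, which did not pass the test. Summed over the list, levels were 712 to 764 CPM in ChimP3V3 and 883 to 906 CPM in gp130:IL-6R libraries. Of 20 T and NK cell markers 7 had a count in medium and 2 were tested, Gzmb among them, and both were lower. The list summed to 0.689 to 3.85 CPM in ChimP3V3 and 89.8 to 108 CPM in gp130:IL-6R libraries. Gzmb alone, whose level is given below, made up most of the gp130:IL-6R sum. Cd3e, Trac, Trbc1, Ncr1 and Prf1 were at 0 in all 8. Of 20 macrophage and dendritic cell markers 4 were tested, 2 higher and 2 lower, with sums of 170 to 206 and 156 to 188 CPM. Of 14 fibroblast and epithelial markers 1 was tested and was not called. Granule, mast cell, red cell and platelet markers are described below; the part of other cells in any result was not tested. In bulk RNA, fewer cells that express a gene and less RNA of it per cell cannot be told apart, here and for every gene below.

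Transcripts of the red cell and platelet lineages made up the group that stood highest in ChimP3V3 cells. Of 14 tested erythroid markers, 12 were higher and 2 lower, against 31.7% and 33.4% of all tested genes, with a median of 3.46 on the log2 scale, or 2.39 with genes at 0 in a line set to their bounds. Of 6 tested megakaryocyte markers, 5 were higher and 1 lower (median 3.11). Globins, the oxygen carriers of red cells, led the list. Below are the promoters of an alpha and a beta globin gene, shown because these genes were abundant in ChimP3V3 and at or near 0 in gp130:IL-6R cells, and that of Il6st, for which the reverse held. They come from RefSeq on build GRCm38.p6, run from 250 bases before to 50 bases after the transcription start, and read 5′ to 3′ on the gene's strand; Hba-a1 is at chr11:32283422-32283721 (plus strand), Hbb-bs at chr7:103827879-103828178 (minus strand) and Il6st at chr13:112463820-112464119 (plus strand). In the globin promoters, capitals mark the motif CACCC, the CCAAT box and the motifs TGATAA or else AGATAA, each on either strand, and in the promoter of Il6st they mark CG. The Il6st promoter also held 2 CACCC and 2 CCAAT, left in small letters, and no TGATAA or AGATAA.
Hba-a1: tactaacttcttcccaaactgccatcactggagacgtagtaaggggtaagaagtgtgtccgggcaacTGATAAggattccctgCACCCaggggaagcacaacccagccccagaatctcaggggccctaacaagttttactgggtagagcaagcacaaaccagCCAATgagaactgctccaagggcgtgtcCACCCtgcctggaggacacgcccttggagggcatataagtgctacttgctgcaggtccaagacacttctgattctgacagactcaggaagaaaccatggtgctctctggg
Hbb-bs: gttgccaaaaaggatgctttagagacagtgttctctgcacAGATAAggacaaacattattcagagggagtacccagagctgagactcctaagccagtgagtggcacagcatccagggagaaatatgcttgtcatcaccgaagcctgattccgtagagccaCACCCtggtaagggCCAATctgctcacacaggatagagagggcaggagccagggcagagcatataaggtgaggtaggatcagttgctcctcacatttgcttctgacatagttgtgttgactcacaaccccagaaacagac
Il6st: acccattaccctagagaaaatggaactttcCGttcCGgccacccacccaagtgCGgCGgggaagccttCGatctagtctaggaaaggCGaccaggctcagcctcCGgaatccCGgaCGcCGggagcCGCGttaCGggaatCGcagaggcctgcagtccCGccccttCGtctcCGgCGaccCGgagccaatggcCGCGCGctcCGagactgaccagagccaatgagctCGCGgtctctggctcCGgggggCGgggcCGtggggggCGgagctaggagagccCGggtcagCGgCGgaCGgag

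A CACCC was present in all 6 globin promoters of the table and in 56.7% of all 27025 promoters, a CCAAT in 5 of 6 and in 37.9%, a TGATAA in 4 of 6 and in 9.26%, and an AGATAA in 1 of 6 and in 11.4%. The first, the second and the GATA-type motifs are those that erythroid Krüppel-like factors, NF-Y and GATA factors are known to bind in globin promoters, and a match of letters is a description only. The Il6st promoter held 33 CG, the Hba-a1 promoter 4 and the Hbb-bs promoter 2, with a median of 22 over the 7735 tested genes in the table. CG counts also differed between the genes seen in only 1 line. The 72 promoters of genes with 0 counts in ChimP3V3 and at least 5 CPM in gp130:IL-6R cells had a median of 12 CG, and the 42 promoters of the reverse group a median of 6. CpG methylation was not measured.

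Hbb-bs, an adult beta globin gene (chromosome 7, 103475741 to 103477303, minus strand, GRCm39 here and below), was at 334, 331, 322 and 297 CPM in the ChimP3V3 libraries and had 0 counts in all 4 gp130:IL-6R libraries. It was at least 659-fold higher (edgeR adjusted p = 3.305e-32). Hba-a1, an adult alpha globin gene (chromosome 11, 32233511 to 32234465, plus strand), was at 470.4, 500.0, 546 and 454 CPM against 0, 0, 0 and 0.657 CPM, the last being a single count. Its second copy Hba-a2 was at 604, 594, 609 and 568 CPM against 0, 1.203, 2.852 and 0 CPM. All ChimP3V3 libraries were thus far above every gp130:IL-6R library, which were at or near 0. Reads of Hba-a1 and Hba-a2 can fit both copies, so the split between them is uncertain. Hbb-bt, the other adult beta globin gene, was at 67.1 CPM ± 4.99 (SD, n = 4) against 0.164 CPM ± 0.329. Hbb-y, an embryonic globin gene, was at 49.0 CPM ± 3.45 and had no count in gp130:IL-6R cells, at least 100.6-fold higher.

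Other red cell genes differed as well. Rhag, a membrane protein gene of the Rh complex (chromosome 17, 41122017 to 41151645, plus strand), was at 133, 117, 119.8 and 119.5 CPM in ChimP3V3 and at 0 in all gp130:IL-6R libraries, at least 251-fold higher (edgeR adjusted p = 9.038e-27). Hemgn, which encodes hemogen, was 5.87-fold higher (39.4 against 6.53 CPM), and the transferrin receptor gene Tfrc, which serves iron uptake, 1.24-fold higher (699 against 563 CPM). Of the 2 members that were lower, Tspo2 had 0 counts against 6.82 CPM. Car1, Slc4a1 and Sptb, which mark mature red cells, had 0 counts in all 8 libraries. Of the platelet lineage, Pf4, the gene of platelet factor 4, a granule chemokine (chromosome 5, 90920294 to 90921242, plus strand), was at 39.6, 53.9, 55.8 and 49.6 CPM against 0 in every gp130:IL-6R library. The platelet integrin genes Itga2b (169 against 62.8 CPM, 2.68-fold) and Itgb3 (30.0 against 0.178 CPM) were higher as well, with no overlap. Vwf, Gp1bb, Tubb1 and Treml1 had 0 counts throughout.

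**Figure D1:**
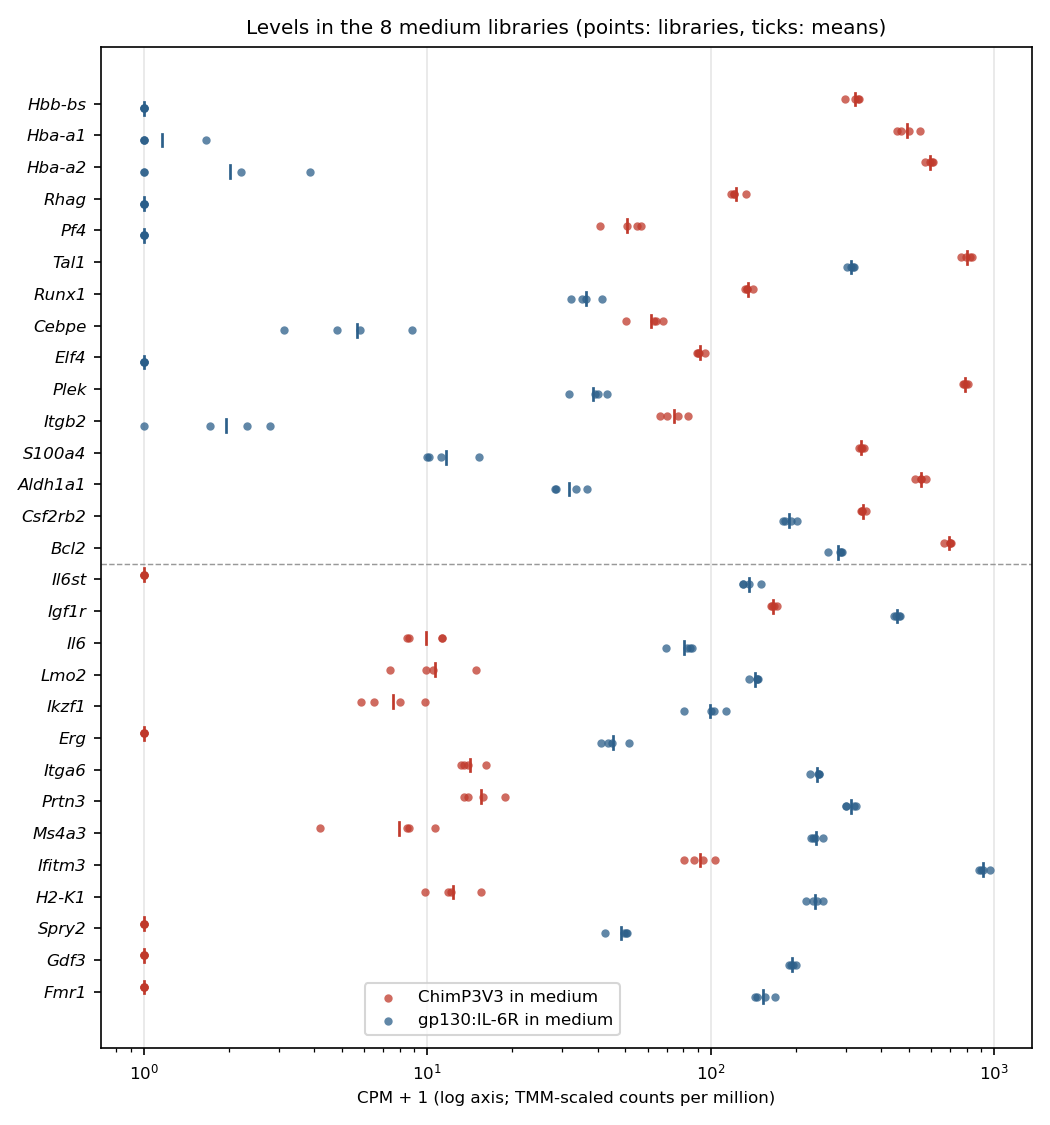
CPM plus 1 on a log axis for 29 genes in the 8 medium libraries, with each library as a point and the group mean as a tick (red, ChimP3V3; blue, gp130:IL-6R). Genes above the dashed line were higher in ChimP3V3 and those below it lower, and for none of the 29 did the libraries of the lines overlap.

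The receptor genes of the cells differed beyond those that were introduced. Il6st (chromosome 13, 112600604 to 112646620, plus strand) was at 149.6, 136, 129 and 129 CPM in the gp130:IL-6R libraries and had 0 counts in all ChimP3V3 libraries, at least 268-fold lower (edgeR adjusted p = 3.129e-27). The counts do not say whether this RNA came from the introduced or the cells' own gene. Il6ra had no count in medium in either line, so the table does not show the IL-6 receptor of the label. The species and the 3′ end of the introduced genes are not given in the sources used here, and 3′ reads of an introduced gene may lie outside the annotated one, so neither Il6st nor Il6ra checks the labels. Of 4 tested genes of the gp130 family, 3 were lower and none higher: beside Il6st these were Il27ra, the interleukin-27 receptor chain (4.53 against 16.9 CPM), and Ebi3, a subunit of interleukin-27 and interleukin-35 (1.35 against 9.82 CPM).

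All 3 tested genes of the interleukin-3 receptor family were higher. Csf2rb2, the beta chain that is specific to interleukin-3 in mice (chromosome 15, 78166707 to 78189921, minus strand), was at 340.5, 342, 351 and 339.5 CPM in ChimP3V3 and at 200.5, 179, 191 and 182 CPM in gp130:IL-6R libraries. The groups were far apart, 1.83-fold (log2 0.87, SE 0.048, edgeR adjusted p = 1.685e-19). Csf2rb, the beta chain shared with other cytokines, was at 477 CPM ± 14.5 against 301 CPM ± 13.7 (SD, n = 4, 1.58-fold); the genes are near-identical neighbours, and reads can fit both. Il3ra, the alpha chain, was at 29.2, 25, 28.2 and 25.1 against 17.8, 23.4, 12.1 and 22.3 CPM (1.40-fold, edgeR adjusted p = 0.0221). That call was lost without gp130:IL-6R replicate 3 (adjusted p = 0.12) or replicate 1 (0.0542), without ChimP3V3 replicate 1 (0.0598) and with replicates merged (0.0986). Csf2rb and Csf2rb2 lie on chromosome 15, whose genes had a median of 0.26, and Il3ra lies in the part of chromosome 14 before 45 Mb, where the median was -0.04.

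Among 21 other cytokine and growth factor receptors, 15 were lower and 3 higher, with a median of -0.73. Igf1r, the insulin-like growth factor 1 receptor (chromosome 7, 67602575 to 67883416, plus strand), was at 166, 170.5, 162 and 164 CPM against 460.1, 465, 451 and 443 CPM, 2.75-fold lower (log2 -1.46, SE 0.046, edgeR adjusted p = 5.312e-28). Both chains of the interleukin-18 receptor, Il18r1 (61.2 CPM in gp130:IL-6R) and Il18rap (106 CPM), had 0 counts in every ChimP3V3 library, at least 121-fold and 209-fold lower. The interferon receptor gene Ifnar2 (55.9 against 224 CPM) and the interleukin-4 receptor gene Il4ra (15.9 against 66.2 CPM) were 4.00-fold and 4.10-fold lower. The higher members were Epor, the erythropoietin receptor gene (35.4 against 16.5 CPM), Il2rg, the common gamma chain gene (34.4 against 15.4 CPM), and Axl, a receptor kinase gene (15.8 CPM against 0 counts).

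The JAK and STAT genes themselves were called about as often as tested genes at large (65.1%). Of 10 tested, 4 were higher, 2 lower and 4 not called. Differences of at least 1.5-fold were called for 1 higher and 1 lower gene, against 15.9% and 16.7% of all tested genes. Jak1 was 1.27-fold higher (593 CPM ± 7.18 against 467 CPM ± 24.5; SD, n = 4), Tyk2 2.07-fold and Stat5b 1.28-fold higher, and Stat3 1.31-fold lower (216 CPM ± 7.85 against 283 CPM ± 13.3). Jak2 and Stat5a were not called (edgeR adjusted p = 0.1565 and 0.05153). Jak2 passed without ChimP3V3 replicate 1 (edgeR adjusted p = 0.0478). Stat5a passed without gp130:IL-6R replicate 3 (0.0435), ChimP3V3 replicate 2 (0.00912) or ChimP3V3 replicate 4 (0.0177). Stat3 and Stat5a overlap on opposite strands, and the strand setting of the counting was not given.

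Of 22 STAT feedback inhibitors and target genes, 6 were higher and 10 lower (median -0.17), against 31.7% and 33.4% of all tested genes. Socs2, a feedback inhibitor that STAT5 drives, was 2.64-fold higher (172 against 64.9 CPM), and Ptpn6, which encodes the phosphatase SHP-1, 2.92-fold higher (308 against 106 CPM). Socs3, the feedback inhibitor of gp130, was at 13.9, 10.9, 16.5 and 9.51 CPM against 21.0, 21.1, 18.5 and 26.9 CPM, 1.73-fold lower with no overlap (edgeR adjusted p = 0.0007613). The kinase genes Pim1 (119 against 165 CPM) and Pim2 (13.1 against 68.2 CPM), the granzyme gene Gzmb (0.673 against 86.8 CPM) and the repressor gene Bcl6 (0.160 against 13.1 CPM) were lower. Il6 itself was transcribed in both lines: Il6 (chromosome 5, 30218112 to 30224979, plus strand) was at 7.64, 10.3, 10.3 and 7.47 CPM in ChimP3V3 and at 81.5, 83.6, 68.5 and 84.8 CPM in gp130:IL-6R libraries, 8.85-fold lower with no overlap (edgeR adjusted p = 1.298e-22). IL-6 protein was not measured.

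Transcription factors that set blood lineages were called more often than tested genes at large, as often in 1 direction as in the other. Of 30 tested, 14 were higher, 14 lower and 2 not called, against 31.7% higher and 33.4% lower of all tested genes. Factors known from the erythroid and megakaryocyte lineages went both ways. Tal1, a basic helix-loop-helix factor gene of these lineages (chromosome 4, 114913623 to 114928952, plus strand), was at 823, 761, 794 and 836 CPM against 321, 316, 302 and 312 CPM, 2.57-fold higher (log2 1.36, SE 0.040, edgeR adjusted p = 3.029e-29). The 40 genes of the stretch of chromosome 4 in which it lies had a median of 0.48.

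Also higher were Zfpm1, the gene of the GATA1 cofactor FOG1 (176 against 71.3 CPM), Klf1, the erythroid Krüppel-like factor gene (123 against 55.0 CPM), Gfi1b, a repressor gene of the same lineages (58.2 against 12.1 CPM), and Gata1 (87.7 against 54.2 CPM). Runx1, a core binding factor gene (chromosome 16, 92398354 to 92623037, minus strand), was at 131, 140.4, 133 and 133 CPM against 31.2, 40.3, 34.2 and 35.5 CPM, 3.79-fold higher (edgeR adjusted p = 1.552e-22), on a chromosome whose median was -0.42. Its relative Runx3 went the other way, 4.45-fold lower (70.6 against 314 CPM). Cebpe, a late granulocyte factor gene, was 12.7-fold higher (60.5 against 4.66 CPM), while Cebpa, which acts earlier in that lineage, had 0 counts against 16.3 CPM. Elf4, an ETS factor gene (chromosome X, 47499923 to 47552009, minus strand), was at 90.3, 94.2, 89.5 and 88.3 CPM and at 0 in all gp130:IL-6R libraries.

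Other factors, some of them active in the same lineages, were lower. Lmo2, whose protein bridges Tal1 and GATA factors (chromosome 2, 103788331 to 103812223, plus strand), was at 13.9, 6.41, 8.95 and 9.51 CPM against 146, 145, 136 and 144 CPM, 14.7-fold lower (edgeR adjusted p = 1.177e-27). Ikzf1, the gene of the lymphoid factor Ikaros (chromosome 11, 11634980 to 11722926, plus strand), was at 4.86, 7.05, 5.51 and 8.83 CPM against 79.5, 102, 113 and 99.2 CPM, 14.7-fold lower (edgeR adjusted p = 2.257e-23). Neither gene's libraries overlapped between the lines, and Ikzf1 lies in a stretch of chromosome 11 whose 44 genes had a median of -0.32. The ETS factor genes Erg (44.3 CPM in gp130:IL-6R) and Ets1 (21.4 CPM) had 0 counts in every ChimP3V3 library, at least 87.5-fold and 42.3-fold lower, and Fli1 was 1.69-fold lower (135 against 229.6 CPM). Gata2, a factor gene of progenitors and mast cells, was 1.43-fold lower (411 CPM ± 11.8 against 590.1 CPM ± 27.5; SD, n = 4).

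Genes of leukocyte surface and signalling proteins differed in both directions. Of 30 tested adhesion and homing molecules, 12 were higher and 13 lower, against 31.7% and 33.4% of all tested genes. Plek, which encodes pleckstrin, a protein kinase C substrate of platelets and leukocytes (chromosome 11, 16921206 to 17002381, minus strand), was at 807, 781, 777 and 794 CPM against 42, 39.1, 30.7 and 38.1 CPM, 20.9-fold higher (edgeR adjusted p = 1.915e-40). Its groups lay far apart, and it lies in the same lower stretch of chromosome 11 as Ikzf1.

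Integrin genes also went both ways. Itgb2, the beta chain of the leukocyte integrins, was at 73.1 CPM ± 7.41 against 0.958 CPM ± 0.779 (SD, n = 4), 69.0-fold higher, and Itga6, the alpha 6 chain that binds laminin, at 13.2 CPM ± 1.34 against 236 CPM ± 7.88, 17.8-fold lower. Cxcr4, the receptor gene for the bone marrow chemokine CXCL12, was 2.09-fold higher (270.4 against 129.5 CPM). Cd69 (44.4 CPM), an early activation marker, Cd52 (34.7 CPM), a small glycoprotein gene of lymphocytes, Lcp2 (71.1 CPM), an adaptor gene of antigen receptor signalling, and P2ry10 (77.1 CPM), a lysophospholipid receptor gene, had 0 counts in every gp130:IL-6R library. They were at least 91.2-fold, 71.2-fold, 146-fold and 158-fold higher. Rgs1, a brake on chemokine receptor signalling, was at 136, 153, 138 and 161 CPM with 1 count in all gp130:IL-6R libraries. Ptprk, a receptor phosphatase gene, was at 0, 1.92, 0 and 1.36 CPM against 293, 297, 325 and 308 CPM.

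Genes of myeloid granules were mostly lower. Of 13 tested granule and early neutrophil markers, 9 were lower and 4 higher (median -3.07, or -2.42 with bounds). Prtn3, the gene of the neutrophil protease proteinase 3 (chromosome 10, 79710310 to 79719008, plus strand), was at 12.5, 14.7, 17.9 and 12.9 CPM against 299.8, 300, 320.1 and 325 CPM, 21.3-fold lower (edgeR adjusted p = 1.423e-34). Ms4a3, a surface protein gene of granulocyte and monocyte progenitors, was at 7.64, 3.21, 9.64 and 7.47 CPM against 249, 226, 229 and 233 CPM, 33.4-fold lower. The cystatin gene Cst7 was among the 4 that went up, at 60.7 against 3.05 CPM. Camp, Ltf, Ly6c2 and Ly6g had 0 counts in all 8 libraries. Mast cell and basophil markers went both ways: Cpa3, the mast cell carboxypeptidase gene (16.6 CPM against 0 counts), and Slc18a2, a monoamine transporter gene (792 against 475 CPM), were higher, while Fcer1g, the signalling chain of Fc receptors, was at 0, 0.641, 0 and 0 CPM against 73.8, 64.9, 63.5 and 66.4 CPM. The mast cell protease genes Cma1, Tpsab1 and Tpsb2 and the basophil protease gene Mcpt8 had 0 counts in all 8 libraries.

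The interferon-induced IFITM genes, whose membrane proteins block virus entry, were lower together. Ifitm3 (chromosome 7, 140589499 to 140590683, minus strand) was at 79.9, 103, 93.0 and 86.2 CPM against 895, 882, 964 and 913 CPM, 10.1-fold lower (edgeR adjusted p = 3.222e-39). Ifitm1 was 3.88-fold lower (318 against 1235 CPM), Ifitm2 3.08-fold lower (76.4 against 236 CPM), and Ifitm6 had 0 counts against 65.0 CPM. These 4 genes lie between 140534750 and 140597837 on chromosome 7. The wider list of 33 interferon-stimulated genes had 8 higher, 13 lower and a median of 0.09, and it summed to 1410 to 1460 CPM in ChimP3V3 and 3320 to 3470 CPM in gp130:IL-6R libraries, the IFITM genes included. The IFITM genes made up most of the gp130:IL-6R sum and most of the gap between the sums of the lines.

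Of 22 tested genes of MHC class I antigen presentation, 14 were lower and 2 higher (median -0.36). H2-K1, a class I heavy chain gene (chromosome 17, 34214991 to 34219321, minus strand), was at 11.1, 10.9, 14.5 and 8.83 CPM against 228, 216, 248 and 236 CPM, 20.3-fold lower (edgeR adjusted p = 6.539e-32), and H2-D1 1.64-fold lower (234 against 384 CPM). The groups did not overlap for either gene, and reads of class I genes can fit more than 1 of them. The proteasome activator genes Psme1 (92.2 against 222 CPM) and Psme2 (52.3 against 197 CPM) and the immunoproteasome gene Psmb8 (104 against 226 CPM) were lower. Psme1 and Psme2 lie in the stretch of chromosome 14 described below, where the median gene was also lower.

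Among the genes with the smallest p that were higher were 2 of the calcium-binding S100 family, 1 annexin and a dehydrogenase. S100a4 (chromosome 3, 90511078 to 90513352, plus strand) was at 346, 339, 333 and 340.2 CPM against 10.2, 9.02, 14.3 and 9.20 CPM, 31.9-fold higher (edgeR adjusted p = 1.009e-36), and S100a6 10.8-fold higher (403 against 37.4 CPM). The families did not move as a whole: Anxa3 had 0 counts in ChimP3V3 against 234 counts in gp130:IL-6R libraries, and Anxa6 was not called, both looked up after the values were seen. Anxa1, the annexin A1 gene, was 40.3-fold higher (272 against 6.67 CPM), and Aldh1a1, which encodes a retinaldehyde dehydrogenase, 17.9-fold higher (550.5 against 30.8 CPM). All libraries of ChimP3V3 lay above all of gp130:IL-6R for these 4 genes.

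Genes with 0 counts in all libraries of 1 line and at least 5 CPM in the other numbered 86 for ChimP3V3 at 0 and 55 for gp130:IL-6R at 0. Gdf3, a growth factor gene of the TGF-beta family (chromosome 6, 122582362 to 122587046, minus strand), was at 192, 198, 188 and 194 CPM in gp130:IL-6R libraries, and ChimP3V3 cells were at least 381-fold lower. Fmr1, the gene of the RNA-binding protein FMRP (chromosome X, 67722147 to 67761569, plus strand), was at 144, 167, 154 and 143 CPM and at least 300.3-fold lower, and Hook1, a gene of a microtubule-linked transport protein, at 165 CPM ± 11.8 and at least 325-fold lower. Among genes at 0 in gp130:IL-6R cells, Plxdc2, a membrane protein gene, was at 109 CPM ± 11.3, and Abcb4, a phospholipid transporter gene, at 73.7 CPM ± 5.40. For these 5 genes no library of the silent line held a single count. Tent5a, which encodes a poly(A) polymerase, was detected in both and 9.78-fold lower (75.7, 96.8, 90.9 and 82.8 CPM against 852, 841, 868 and 839 CPM).

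Early-response genes of the ERK pathway divided by gene. Of 22 tested, 11 were lower and 6 higher (median -0.28), against 33.4% and 31.7% of all tested genes. Fos, an AP-1 subunit gene (chromosome 12, 85520664 to 85524047, plus strand), was at 23.6, 24.4, 22.04 and 24.4 CPM against 0.636, 1.203, 0.713 and 0 CPM, 32.2-fold higher (edgeR adjusted p = 1.114e-15), and Fosb 17.6-fold higher (15.7 against 0.788 CPM). Dusp1, a phosphatase gene that switches off MAP kinases, was 5.31-fold higher (77.2 against 14.5 CPM) and overlaps Ergic1 on the opposite strand. Their partner Jun was 2.26-fold lower (36.5 against 82.6 CPM), and Ier3 3.43-fold lower (45.7 against 157 CPM). Spry2, a Sprouty gene that restrains ERK signalling (chromosome 14, 106129381 to 106134253, minus strand), had 0 counts in all ChimP3V3 libraries against 41.4, 49.9, 49.2 and 48.6 CPM, at least 93.3-fold lower.

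A gene that blocks apoptosis and its antagonist were both higher. Of 13 BCL2 family genes, 4 were higher and 2 lower, against 31.7% and 33.4% of all tested genes. Bcl2, which blocks apoptosis (chromosome 1, 106465908 to 106642004, minus strand), was at 696, 700.0, 666 and 705 CPM against 290.2, 285, 287 and 258 CPM, 2.47-fold higher (edgeR adjusted p = 9.857e-28). Bcl2l11, the gene of its antagonist BIM, was at 126, 118, 140.5 and 113 CPM against 36.3, 37.3, 35.6 and 31.5 CPM, 3.52-fold higher. Of 18 FOXO targets and nutrient sensors, 7 were higher and 8 lower, against the same shares of all tested genes. Among them, Cited2, a CBP/p300 binding protein gene, was 2.84-fold higher (722 against 254 CPM). The antiproliferative gene Btg1 was at 0.676 CPM in ChimP3V3, a single count in each library, against 109 CPM ± 6.07 (SD, n = 4) in gp130:IL-6R cells. Of 25 genes of the PI3K pathway, 8 were higher and 10 lower, against the same shares. Phlpp1 of this list, which encodes a phosphatase that acts on AKT, was 7.47-fold higher (236 against 31.5 CPM).

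Gene groups of growth and division leaned lower in ChimP3V3 cells, by small amounts in many genes. Of 60 ribosome biogenesis genes, 48 were lower and 3 higher, against 33.4% and 31.7% of all tested genes, with a median of -0.48 against -0.004 over all genes. Noc2l, a nucleolar protein gene, was at 68.1, 62.2, 69.5 and 74.0 CPM against 169.9, 165, 175 and 160.3 CPM, 2.45-fold lower (edgeR adjusted p = 1.268e-18), and Nolc1, another, 2.04-fold lower (91.5 against 187 CPM). Myc, the transcription factor gene known to drive such genes, was 1.31-fold higher (47.2 CPM ± 4.52 against 36.03 CPM ± 4.09, SD, n = 4, edgeR adjusted p = 0.004721). Its highest gp130:IL-6R library overlapped the lowest of ChimP3V3. MYC protein was not measured, and the part of Myc in these differences was not tested. Of 83 ribosomal protein genes, in contrast, 43 were higher and 8 lower, with a median of 0.11.

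Of 42 mitosis genes, 32 were lower and 3 higher (median -0.32), as with Ccnb1, the cyclin B1 gene (194 CPM ± 5.57 against 359 CPM ± 7.48; SD, n = 4), and the checkpoint kinase gene Bub1b (56.2 against 128 CPM). Of 47 DNA replication genes, 24 were lower and 9 higher (median -0.19), and the polymerase delta subunit gene Pold2 was 3.53-fold lower (20.2 against 71.5 CPM). Cdk6, a G1 kinase gene (chromosome 5, 3391485 to 3581008, plus strand), was at 435, 409.6, 439 and 425 CPM against 591, 595, 628 and 597 CPM, 1.41-fold lower. The share of cells in each cycle phase and the growth rate of the lines were not measured.

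Protein folding and amino acid genes leaned the same way. Of 27 genes of folding in the endoplasmic reticulum, 19 were lower and 5 higher (median -0.41), among them the chaperone genes Hspa5 (678 CPM ± 30.7 against 1057 CPM ± 39.6; SD, n = 4) and Sdf2l1 (3.44-fold lower, 47.0 against 162 CPM). Of 35 genes of the integrated stress response and amino acid supply, 26 were lower and 3 higher (median -0.45). Asns, the asparagine synthetase gene, was 2.32-fold lower (52.99 against 123 CPM), Ero1a, an oxidase gene of disulfide formation, 2.11-fold lower (148 against 313 CPM), and Cth, which makes cysteine, had 3 counts in all in ChimP3V3 libraries against 64.6 CPM. The counting ratio of Cth was 127 (95% interval 43.1 to 618). Of 19 heat shock genes, 12 were lower and 4 higher, among them the mitochondrial chaperonin gene Hspd1 (496 against 815 CPM), which overlaps Hspe1.

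Respiration showed opposite leanings of its 2 genomes. Of 76 nuclear genes of oxidative phosphorylation, 38 were lower and 11 higher (median -0.15), and of 13 mitochondrial genes 9 were higher and none lower (median 0.19). Glycolysis and hypoxia genes (10 higher and 13 lower of 32) and cholesterol and fatty acid synthesis genes (13 and 10 of 33) were called about as often as tested genes at large. Of 41 glutathione, thioredoxin and NRF2 target genes, 17 were higher and 12 lower, with the quinone reductase gene Nqo1 2.95-fold higher (40.4 against 13.7 CPM) and the ferritin light chain gene Ftl1 1.58-fold higher (662 against 419 CPM). Of 28 DNA methylation and polycomb regulators, 16 were lower and 3 higher (median -0.17).

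The other lists are given beside the shares of all tested genes, 31.7% higher and 33.4% lower. RAS-ERK pathway proteins had 9 higher and 4 lower of 22 (median 0.20). The p53 pathway genes had 8 and 7 of 24, near these shares. G1 cyclins and their kinases had 2 and 7 of 12 (median -0.26), and NF-kB subunits and targets 5 and 10 of 21 (median -0.23). Of 4 germline and placental genes 1 was higher and 3 lower, and both tested imprinted genes were higher.

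**Figure D2:**
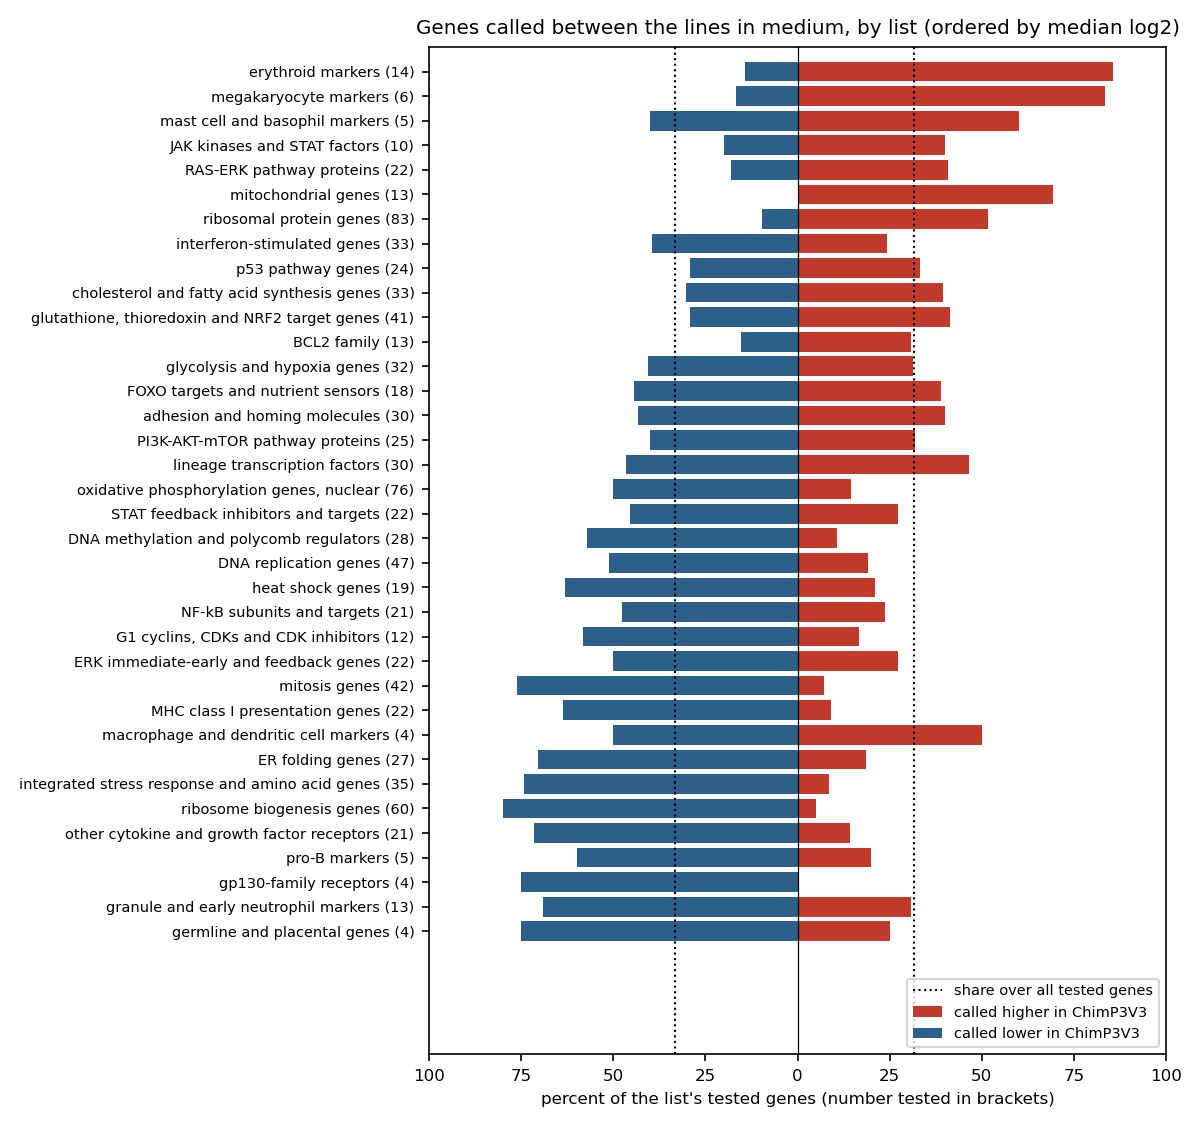
Share of each list's tested genes that was called higher (red, to the right) or lower (blue, to the left) in ChimP3V3 cells, with the shares over all 9540 tested genes as dotted lines (31.7% and 33.4%). Among lists with at least 4 tested genes, erythroid (12 of 14) and megakaryocyte markers (5 of 6) reached furthest to the right, and ribosome biogenesis genes (48 of 60) furthest to the left.

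The differences were not spread evenly over the chromosomes. On 16 of the 20 nuclear chromosomes measured (the autosomes and X), the median difference lay between -0.06 and 0.15 on the log2 scale. On chromosome 14 it was -0.58 over 323 genes, 64.1% of which were called lower; on chromosome 16 it was -0.42 (309 genes, 66% lower), on chromosome 2 -0.31 (763 genes, 52.2% lower), and on chromosome 15 it was 0.26 (368 genes, 54.6% higher). Summed over its genes, chromosome 14 ran from 24400 to 24600 CPM in ChimP3V3 and from 32300 to 32900 CPM in gp130:IL-6R libraries, so that no library overlapped.

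**Figure D3:**
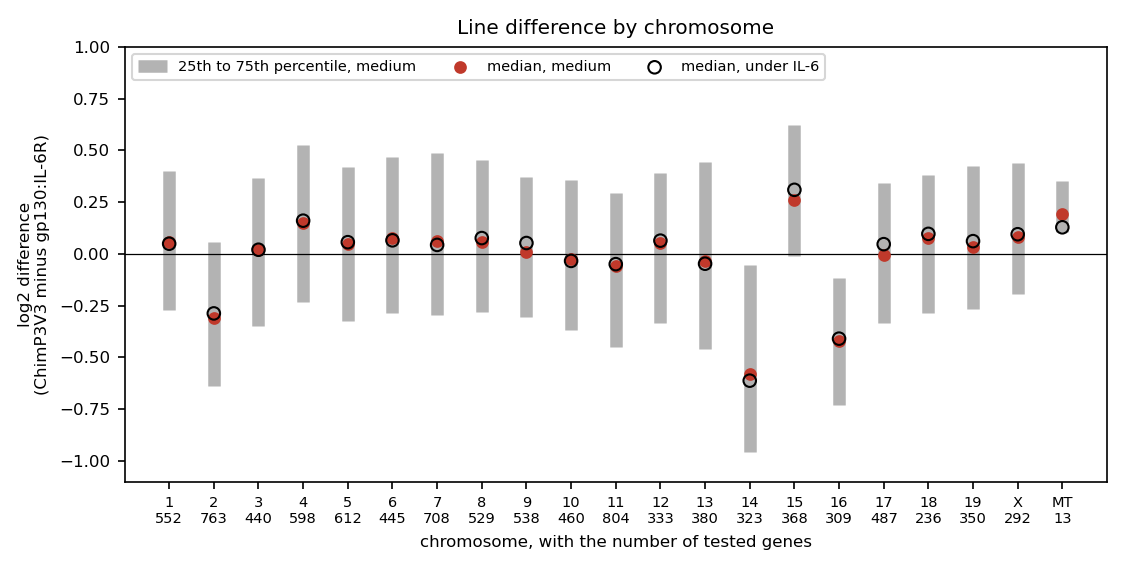
Median log2 difference between the lines for the tested genes of each chromosome in medium (red points, with grey bars from the 25th to the 75th percentile of genes) and under IL-6 (open circles). Chromosomes 14, 16 and 2 lie below 0 and chromosome 15 above it, at nearly the same values in both conditions.

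Within chromosome 14 the shift covered only a part. The 98 genes (of those with at least 5 CPM) before 45 Mb had a median of -0.04, and 53 of them (54.1%) were below 0. The 221 genes beyond 45 Mb had a median of -0.80, and 197 of them (89.1%) were below 0. This position, and the stretches that follow, were read from the data: a running median over 25 neighbouring genes had to stay beyond 0.3 for at least 40 windows. By that rule, the lower stretch of chromosome 14 held 209 genes from 45370922 to 118943631, a stretch of chromosome 16 from 4457853 to 38370620 held 183 genes (median -0.48), and the end of chromosome 13, from 97265932 to 114293997, held 58 genes (median -0.60), Il6st among them. A stretch of chromosome 2 from 69517159 to 91014182 held 71 genes (median -0.42), Itga6 among them, and chromosome 11 had a lower stretch from 4041480 to 17150375 (44 genes, median -0.32) and another from 40624494 to 53669200 (57 genes, median -0.51). On chromosome 4, 3 stretches between 70345302 and 126647231 were higher, with medians of 0.49, 0.48 and 0.43, and Tal1 lies in the second. The rule missed other shifts, such as the first 10 Mb of chromosome 10 (17 genes, median -0.86). Chromosome 6 had medians of 0.59 from 130 to 140 Mb and 0.58 from 140 to 150 Mb. The lowest window of chromosome 13 (-0.79) lay at 21.96 to 24.92 Mb, away from its end.

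Genes inside such a stretch still differed widely. Cebpe and Spry2 both lie in the lower part of chromosome 14, and 1 was 12.7-fold higher and the other undetected. When each gene was set against the median of its own chromosome, the ribosome biogenesis median was -0.50, that of mitosis genes -0.28 and that of erythroid markers 3.48. A median of the whole chromosome does not remove a shift that covers only a part of it, as on chromosome 14. Lists with a median near 0 moved more for their size: the BCL2 family went from -0.02 to 0.10, FOXO targets from -0.04 to -0.14, PI3K pathway proteins from -0.07 to -0.13 and p53 pathway genes from 0.08 to 0.02. The median of the mitochondrial genes, which make up a chromosome of their own, was 0 by construction. DNA copy number was not measured, and its part in these shifts was not tested.

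**Figure D4:**
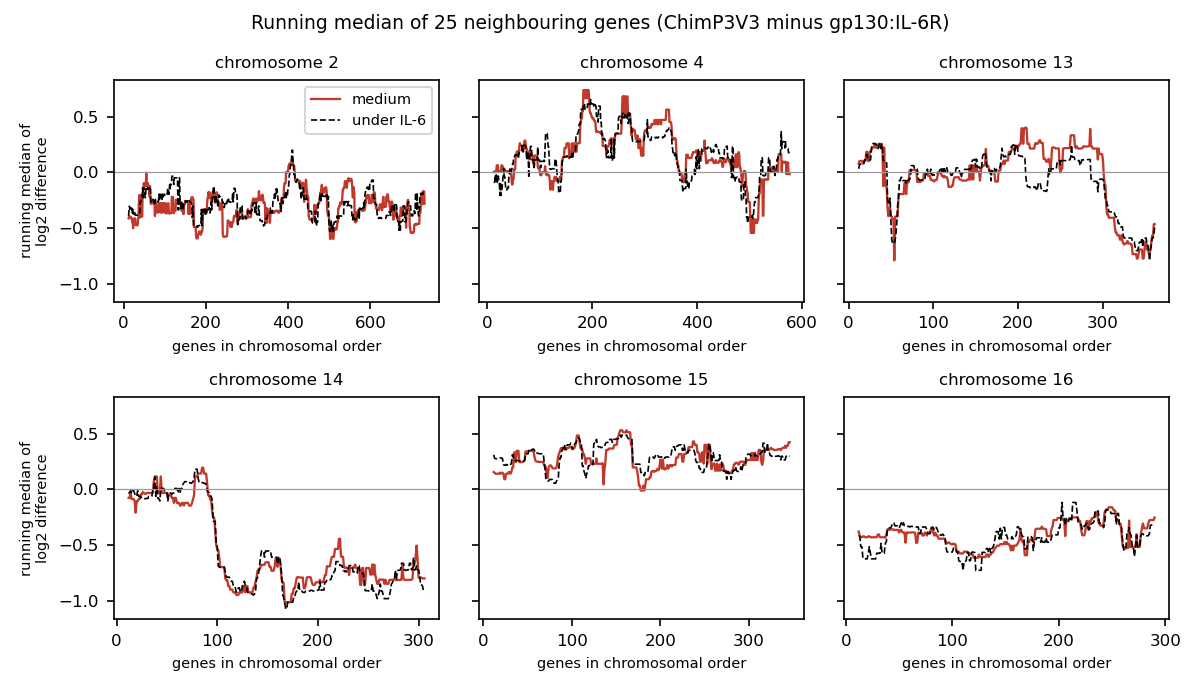
Running median of the log2 difference over 25 neighbouring genes, in chromosomal order, on 6 chromosomes in medium (red) and under IL-6 (dashed). The later part of chromosome 14 lies near -0.80 and the end of chromosome 13 near -0.60, and chromosomes 2, 15 and 16 are shifted along most of their length.

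Most of what set the lines apart in medium was also seen in the 8 libraries given IL-6 at 100 ng/ml, which are separate samples of the same lines. There, 5992 genes (62.8%) were called between the lines. Of the 3111 genes called at least 1.5-fold apart in medium, 2544 (81.8%) were called the same way under IL-6, 514 were not called and 53 were called the opposite way. Over 7346 genes with a mean of at least 20 CPM and more than 3 counts in each line in medium, the 2 sets of log2 differences had a Pearson r of 0.858 and the same sign in 5781 (78.7%), given as a description, since genes are not independent and each line's traits are shared by its libraries. The chromosome medians were close as well: -0.58 in medium and -0.61 under IL-6 on chromosome 14, and 0.26 and 0.31 on chromosome 15.

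For 2280 genes (23.9%) the difference between the lines itself depended on IL-6. Of these, 23 with a mean of at least 5 CPM in medium were called in both conditions with at least a 1.5-fold difference in opposite directions. All 23 were higher in ChimP3V3 in medium and lower under IL-6. Fos was 32.2-fold higher in ChimP3V3 in medium but lower under IL-6, at 12.9 CPM ± 1.47 against 59.5 CPM ± 8.90 (SD, n = 4). Fosb behaved the same way (1.72 against 17.9 CPM under IL-6), as did Spp1, the osteopontin gene (151 against 88.3 CPM in medium, 153 against 361 CPM under IL-6), Id2, an inhibitor of basic helix-loop-helix factors (60.6 against 26.7 CPM, then 106.9 against 161.6 CPM), and Hmox1, the heme oxygenase 1 gene (39.1 against 19.5 CPM, then 38.5 against 59.5 CPM). Cdk6 and Pim1, which are not among the 23 because they differed by less than 1.5-fold in medium, crossed in the other direction. Cdk6 was lower in medium and higher under IL-6 (712 CPM ± 14.8 against 409 CPM ± 16.8), and Pim1, at 119 against 165 CPM in medium, stood at 360.1 against 243 CPM under IL-6. S100a4 kept its direction with a smaller difference (498.6 against 101.0 CPM under IL-6).

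**Figure D5:**
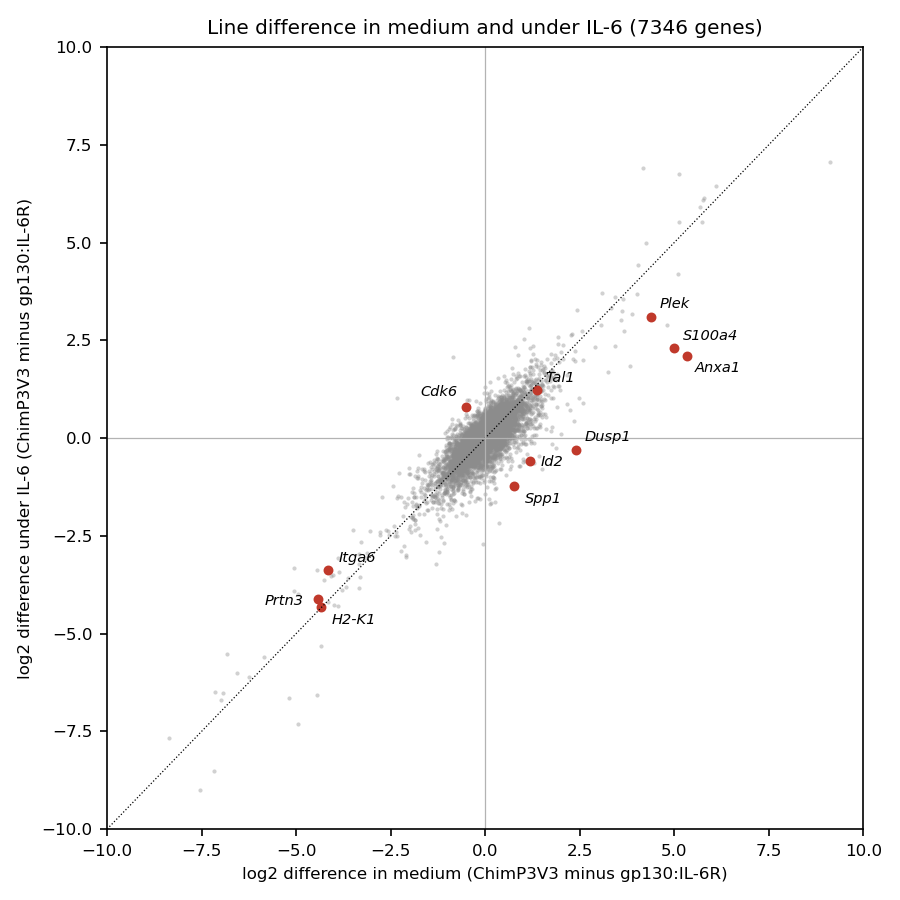
Log2 difference between the lines in medium (x axis) and under IL-6 (y axis) for 7346 genes with at least 20 CPM and more than 3 counts in each line, with 11 named genes in red and equality as a dotted line. Most genes lie along the line (Pearson r 0.858 across genes), while Spp1, Id2 and Dusp1 lie below it and Cdk6 above it.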

How the data were processed

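RNA of the 2 lines, with or without IL-6, was made into 3′ QuantSeq FWD libraries from 100 ng and read as single reads of 100 bases, per the labels' protocols. The deposited table holds whole counts per gene, made by the authors with CLC Genomics Workbench 23.0.4 on GRCm39 with Ensembl release 107 genes, per the file headers; the strand setting and multi-mapping rule are not given in the sources used here. Another 48 columns of per-sample values, in normalized units, were not used.

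Counts of all 16 libraries were fitted with edgeR 4.0.16 (quasi-likelihood, TMM factors, 4 group means, 12 residual degrees of freedom, R 4.3.3) after filterByExpr (minimum count 10, minimum total 15); p-values were adjusted over 9540 genes by Benjamini and Hochberg. CPM are TMM-scaled. A gene at 0 in a group was set to 3 counts over that group and its fold given as a bound, and with 1 to 3 counts a counting ratio with a 95% interval replaced the fitted fold; such intervals cover counting error only. limma 3.58.1 and DESeq2 1.42.0 served as alternatives. Tables and figures were made with Python 3.11.15, numpy 2.4.6, pandas 2.3.3 and matplotlib 3.10.9.

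The comparison, its gene lists and tests were chosen with earlier results of these data known. Named genes were the 15 with the largest change in each direction (mean of at least 5 CPM, no overlap), the 8 with the smallest p in each direction, a set of receptor and JAK-STAT genes, and up to 4 called genes per list and direction. Gfi1b, Klf1, Hemgn, Tfrc, Gata1, Ets1, Cebpa, Fli1, H2-D1, Spp1, Id2 and Hmox1 were added after their values were seen, as was Tcf3, to complete the tested pro-B markers. Genes with near-identical copies (globins, class I H2 genes, Csf2rb and Csf2rb2) and genes that overlap others are uncertain in their split. Some genes are not reported here.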

Additional observations from a re-analysis of the deposited data

Results flagged for a closer look

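Of the genes named, 11 were flagged because the difference between the lines itself depended on IL-6, by the interaction term of the edgeR fit. They are not a count over all named genes, and 2280 of the 9540 tested genes (23.9%) passed this term. Line difference under IL-6 minus that in medium was -7.20 on the log2 scale for Fos (adjusted p = 1.3e-18), -7.46 for Fosb (2.86e-14), -2.71 for Dusp1 (1.72e-16), -2.01 for Spp1 (9.45e-20), -1.78 for Id2 (1.36e-14) and -1.61 for Hmox1 (2.72e-08). S100a4 gave -2.70 (7.13e-19), Anxa1 -3.23 (3.96e-17) and Csf2rb2 -0.62 (1.52e-09). The value was positive for Cdk6, 1.298 (4.47e-22), and for Pim1, 1.05 (3.38e-14). Fos and Fosb rest on very few counts in gp130:IL-6R cells in medium.

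No single library stood apart from its group after adjustment, the lowest adjusted value of this outlier check being 0.832 (Lmo2 and Nolc1). Before adjustment, in some groups of 4 libraries 1 library stood apart from the other 3, which chance gives in about 1 of 20 groups. In ChimP3V3 cells these were Rhag (replicate 1, 132.7 CPM against a median of 119.5 in the others), Pim1 (replicate 1, 131.3 against 114.7 CPM), Psmb8 (replicate 1, 116.7 against 98.72 CPM) and Itgb3 (replicate 3, 21.35 against 33.33 CPM). In gp130:IL-6R cells these were Tfrc (replicate 2, 550.2 against 567 CPM), Lmo2 (replicate 3, 135.5 against 144.9 CPM), Cth (replicate 3, 75.58 against 60.45 CPM), Spry2 (replicate 1, 41.37 against 49.2 CPM), Nolc1 (replicate 4, 190.5 against 185.8 CPM) and Bcl2 (replicate 4, 257.6 against 287.3 CPM). In the rest a single count stood against 0 in the other libraries: Hba-a1 and Hbb-bt in gp130:IL-6R replicate 4 (0.657 CPM each), Itgb3 in gp130:IL-6R replicate 3 (0.713 CPM), Rgs1 in gp130:IL-6R replicate 2 (0.6013 CPM), Bcl6 and Fcer1g in ChimP3V3 replicate 2 (0.641 CPM each), and the haptoglobin gene Hp in ChimP3V3 replicate 4 (0.679 CPM).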

How the results depend on the processing

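The count of 6209 called genes ran from 5349 (adjusted p under 0.01) to 6660 (no filter on low counts), with 5597 in DESeq2, 6133 in limma, 5944 on thinned counts and 5967 to 6056 with 1 library left out. Asking for a fold of at least 1.5 left 3111 genes, 1520 higher and 1591 lower. Upper-quartile scaling gave 3275 higher and 2960 lower. Same-numbered libraries of the lines deviated together weakly (r = 0.0228, 0.0819, 0.126 and 0.0686, across genes), all in the positive direction. On the second principal component replicate 3 was lowest in both lines, at -9.05 in ChimP3V3 and -10.1 in gp130:IL-6R. The other libraries ran from -0.29 to 5.74. Whether the numbers mark a shared step was not tested. The main fit did not pair the libraries, and ChimP3V3 replicate 2 correlated best with another number. With the replicate block 6027 genes were called, 2999 higher and 3028 lower. Without the filter on low counts the median of pro-B markers was 0.0204, of T and NK cell markers 1.57 and of germline and placental genes 0.69, since untested genes near 0 then enter; the mitochondrial median centred on its own chromosome was 0.0 by construction. Of the gene list values under the alternatives, 89 moved and 2107 did not, beside those 4 reversed. Of the values for named genes under the alternatives, 4932 kept direction and side of the threshold, 52 lost the call and 14 gained it, with none reversed. Stat5a also passed with RLE or upper-quartile factors, with other filters, in medium libraries alone and with the block (adjusted p = 0.0289 to 0.0478). At this depth a gene with 0 counts in 1 library could be at up to 1.82 to 2.12 CPM, so absence of low transcripts cannot be read from a single library. The libraries may be technical replicates, and with 1 line per receptor, the receptor and the history of the line cannot be told apart.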
